A study of Mus musculus with 15 samples.

Results

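Dpp4, Pi16, Cd55, Sema3c and Anxa3 are marker genes of the interstitial progenitors of fat, and all 5 had a row among the 8446 rows of the expression table. They were taken by name, with earlier results of these data known. Each was followed across 15 single Tomato+ cells of inguinal white fat, the subcutaneous depot of the groin. The cells came from adult C57BL/6 mice of the genotype Prrx1-CreERT;Tomato, in which a tamoxifen-activated Cre recombinase under Prrx1 control switches on the fluorescent Tomato reporter in cells where Prrx1 is active. Prrx1 encodes a homeobox factor of mesenchyme. The mice were injected with tamoxifen, 2 mg per 30 g of body weight, daily for 3 days, the fat was digested with collagenase, and Tomato+ cells were sorted and then picked one by one. All cells form 1 group, with no untreated group, and the labels do not tie a cell to an animal or give the number of mice. The 15 cells therefore count as 1 sample, and every comparison between cells below is a description without a p-value.

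In white fat, DPP4+ interstitial progenitors lie in the fibrous sheath around the lobules, and lineage studies place them upstream of ICAM1+ committed preadipocytes, which take up lipid and express Pparg. A neighbouring stromal population carries F3, the gene of CD142. DPP4 and CD55 are surface proteins used to sort the interstitial progenitors, PI16 and SEMA3C are secreted or membrane-tethered, and ANXA3 binds membrane phospholipids in a calcium-dependent manner.

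The starts of Dpp4 and Cd55 are shown as examples. Both genes had their highest values in the same cells, as did Sema3c and Anxa3. The windows are the 250 bases before the RefSeq start on GRCm38.p6, at chr2:62412232-62412481 for Dpp4 and chr1:130462745-130462994 for Cd55, both on the minus strand and written 5′ to 3′ along the gene. Capitals mark matches on either strand to 4 motifs. The GC box was searched as GGGCGG. The letters for the TATA box were TATAAA. For the CCAAT box its name gives the letters, and the TCF/LEF motif was searched as CTTTGA. No matches overlapped in these windows.
Dpp4: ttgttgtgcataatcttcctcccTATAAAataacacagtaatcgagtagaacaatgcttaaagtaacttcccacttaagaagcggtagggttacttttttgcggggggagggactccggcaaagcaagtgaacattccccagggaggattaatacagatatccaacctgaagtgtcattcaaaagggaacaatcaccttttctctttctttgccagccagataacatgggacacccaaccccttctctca
Cd55: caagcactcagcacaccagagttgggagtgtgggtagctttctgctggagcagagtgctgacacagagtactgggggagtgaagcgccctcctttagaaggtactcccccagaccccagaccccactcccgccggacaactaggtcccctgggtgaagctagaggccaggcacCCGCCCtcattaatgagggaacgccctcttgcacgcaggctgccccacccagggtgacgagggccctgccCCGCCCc
The windows had little in common in these letters. That of Dpp4 held a TATA box match beginning 227 bases before the start and a GC content of 43.6%, and that of Cd55 held 2 GC box matches, 77 and 7 bases before the start, at a GC content of 64.0%. The median GC content over 32851 such windows was 52.4%. A GC box match was present in 32.7% of all windows, a CCAAT box match in 33.8%, a TATA box match in 12.4% and a TCF/LEF match in 13.8%. For Sema3c the window had 3 GC box matches at 78.4% GC, and for Pi16 it had 1 CCAAT box match at 52.4% GC. A window for Anxa3 was not used here. A match is a string of letters, and binding was not measured.

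Levels are log2(FPKM + 1), where FPKM is the number of fragments scaled to the length of the transcript and to all mapped fragments, and the deposited values had been brought to one common distribution over the cells. A gene was called detected at 1 FPKM or more, which is also 1 on this scale. This was reached by 4369 rows in every cell, and the median row was detected in 7 cells. The number of rows at a cell's lowest value, a measure of breadth, ran from 930 in cell 8 to 1974 in cell 11. It was 1859 in cell 1, 1059 in cell 7 and 1220 in cell 10. Read depth is unknown, so a low value of a weak gene cannot be read as absence.

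Dpp4 was high in 2 cells and low in all others. This gene (chromosome 2, 62330073 to 62412231, minus strand, GRCm38) encodes dipeptidyl peptidase 4, a surface protease that trims chemokines and incretin hormones. Its value was 7.93 in cell 1 and 6.87 in cell 7, which correspond to 243 and 116 FPKM. Next came 2.24 in cell 3, and the lowest was 0.00 in cells 12 and 14, with a median of 0.38. Cells 11 (1.62) and 5 (1.24) also passed 1 FPKM, so that Dpp4 was detected in 5 of 15 cells (33.3%, exact binomial 95% interval 11.8% to 61.6%, counting error only). At 5 FPKM only cells 1 and 7 remained. The step of 4.63 from cell 7 down to cell 3 was a wide one: 78 of 8017 other rows detected in at least 2 cells (0.973%) had a step as large. In cell 1, Dpp4 stood above 93.9% of the rows, and in cell 7 above 88.6%.

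Sema3c had the profile nearest to that of Dpp4 among the 5 genes. Located on chromosome 5 (17574281 to 17730268, plus strand), it encodes a class 3 semaphorin, a secreted guidance signal that acts through neuropilins and plexins. Sema3c stood at 7.11 (cell 1), 5.80 (cell 7), 4.26 (cell 10) and 3.76 (cell 11), and at most at 2.25 elsewhere, down to 0.40 in cell 13. Its median was 1.94. Of the 15 cells, 12 reached 1 FPKM (80.0%, interval 51.9% to 95.7%) and 4 reached 5 FPKM. Of these 4, cells 10 and 11 carried Sema3c with little Dpp4 (0.09 and 1.62).

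Cd55 was spread over more cells. The gene (chromosome 1, 130439027 to 130462744, minus strand) encodes decay-accelerating factor, which is anchored in the membrane and dissociates complement convertases. Its 7 highest values were 9.02 (cell 1), 6.35 (cell 7), 6.28 (cell 4), 5.67 (cell 10), 4.61 (cell 11), 3.91 (cell 12) and 3.45 (cell 15). The other 8 cells had 0.57 to 2.32, and the median was 2.32. Cell 1 thus stood 2.67 above the next cell, while cells 7 and 4 could not be ranked apart (a difference of 0.07). Detection at 1 FPKM covered 14 of 15 cells (93.3%, interval 68.1% to 99.8%), and at 5 FPKM it covered 7. A copy of the gene, Cd55b, had values above 1 FPKM in cells 1 (7.05), 7 (5.79) and 4 (4.75) and at most 0.65 elsewhere. These are the 3 highest cells of Cd55, and since no source used here states how reads shared by the copies were counted, the separate values of Cd55 and Cd55b are uncertain.

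Anxa3 was the most abundant of the markers and the least selective. The gene lies on chromosome 5 (96793339 to 96845966, plus strand). Its values ran from 2.27 in cell 11 through a median of 7.48 to 11.20 in cell 1, with 11.03 in cell 7. In these cells Anxa3 was above 99.7% and 99.6% of the rows. Cells 5 (10.21), 15 (9.74), 6 (9.60), 10 (9.28) and 4 (9.11) followed closely, so cells 1 and 7 headed a continuous series and did not stand apart. Anxa3 was detected in 15 of 15 cells (interval from 78.2%), as were 12.1% of all rows. Its longest transcript measures 1595 nt, against 5268 nt for Dpp4 and 5491 nt for Sema3c. FPKM divides by transcript length, whereas the kit is a 3′ end kit, and the effect of this on levels compared between genes was not tested.

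Pi16 parted from the other 4 genes. The gene (chromosome 17, 29317680 to 29330593, plus strand) encodes peptidase inhibitor 16, a member of the CAP family of secreted proteins that also marks fibroblasts of many other tissues. Pi16 was highest in cell 2 (5.12), where Dpp4 was 0.19 and Cd55 1.02, and then in cells 1 (3.53), 7 (2.57) and 3 (2.01). The other 11 cells lay between 0.09 and 0.97, and the median was 0.45. Thus 4 of 15 cells passed 1 FPKM (26.7%, interval 7.79% to 55.1%) and 2 passed 5 FPKM, and cells 1 and 7 took the places behind cell 2. Cell 2 was also the highest cell for F3 (10.90), Gdf10 (8.69), Clec11a (7.41), Fmo2 (8.70) and Gas6 (10.79), genes of the CD142 stromal population. It was the highest for 3.85% of all rows detected in at least 3 cells. The other genes of that list with a row were highest elsewhere: Mgp in cell 8, Vit in cell 5, Meox2 in cell 10, Cyp1b1 in cell 3 and Aoc3 in cell 12. Meox2 (0.06) and Aoc3 (0.44) were low in cell 2. Cell 8 came next after cell 2 for F3 (9.26), Gdf10 (8.03), Clec11a (4.83) and Fmo2 (8.32), though not for Gas6 (4.97). The mean over the list was 6.37 in cell 2 and 6.11 in cell 8. Pi16 was 0.40 in cell 8, so high values of these genes were not particular to the cell highest in Pi16.

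**Figure D1:**
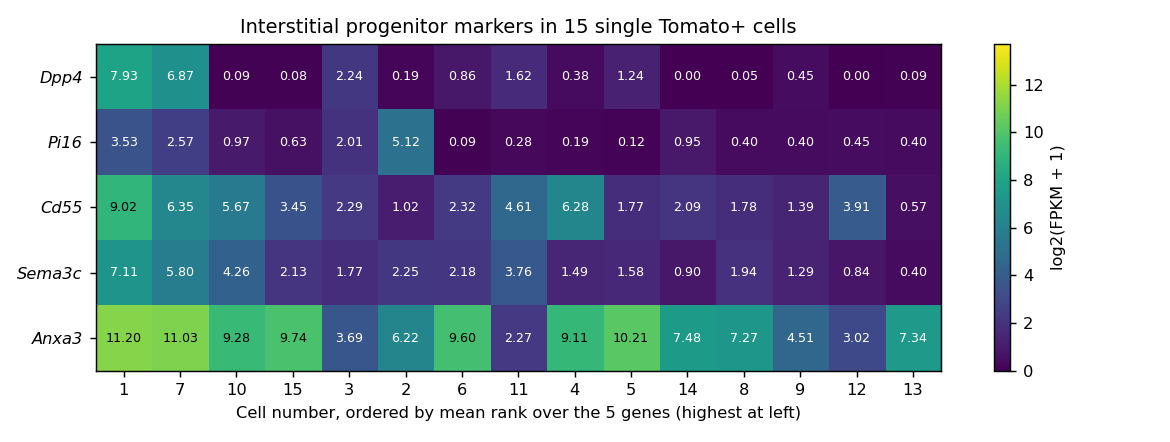
Values of the 5 markers, as log2(FPKM + 1), in each of the 15 cells, 1 column per cell, ordered by the mean over the genes of the cell's rank. Cells 1 and 7 are high in Dpp4, Cd55, Sema3c and Anxa3, and the highest Pi16 is in cell 2 (5.12).

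Cells 1 and 7 shared all 5 markers. Both had each gene at 1 FPKM or more, as did cell 3, and cell 1 alone had all 5 at 5 FPKM or more, with 4 in cell 7 and 3 in cell 10. Of the 5 genes, 3 (Cd55, Sema3c and Anxa3) were detected in 8 or more cells, as were 46.8% of all rows. To order the cells without letting an abundant gene decide, cells were ranked for each gene (15 for the highest) and the ranks averaged. The mean rank was 14.8 (cell 1), 13.8 (cell 7), 10.4 (cell 10) and 8.6 (cell 15), and the lowest were cells 9 (5), 12 (4.6) and 13 (4.2). Leaving out any 1 of the genes kept cells 1, 7 and 10 in the first 3 places. Cell 3 owed its full count to low values, from 1.77 for Sema3c to 3.69 for Anxa3.

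The 2 highest cells were cells 1 and 7 for 4 of the 5 markers, against 1.06% of the other rows detected in at least 2 cells (85 of 8017). This pair was taken from Dpp4, which therefore has it by definition, and Cd55, Sema3c and Anxa3 shared it. Because the pair came from the markers' own values, the count is a description. Over the 105 pairs of cells the number of rows with a given pair on top ran from 36 to 146, with a median of 71, so that this pair was not an unusual one for the table as a whole. With a step of at least 1 to the next cell, 21 rows (0.262%) had this pair, and the median over pairs was also 21. The row with the widest step was Tnfrsf23, a decoy receptor of the TNF receptor family, at 5.55 (cell 1) and 5.46 (cell 7), against at most 0.43 in the other cells. It was the 1 row with this pair whose step exceeded that of Dpp4. Scg3, a protein of secretory granules, stood at 5.04 and 4.17 against at most 0.48, and Cd276, an immune checkpoint surface protein, at 2.30 and 4.61 against at most 0.41. Others with the pair were R74862, Evi5l, Mier2, Pbxip1, Tmem101, Gml, Fbrsl1, Ift140, Zfp322a, Nhsl1, Klhl9 and Fbn1. Fbn1, the microfibril protein fibrillin 1, was detected in all cells and stood at 8.43 and 8.64 against at most 7.21.

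Correlations over the 15 cells, which share processing and an unknown number of animals, were positive for each of the 10 pairs of markers and mostly modest. Sema3c had the highest, with Dpp4 (Spearman 0.593, Pearson 0.849) and with Cd55 (0.575 and 0.802). Dpp4 and Cd55 had 0.368 and 0.691, and Sema3c and Anxa3 had 0.425 and 0.436. The lowest Spearman value was that of Dpp4 and Pi16 (0.0893, Pearson 0.493). The mean Spearman correlation of the 10 pairs was 0.342. It was 0.205 without cell 1 and likewise 0.205 without cell 7, and without both cells it was 0.0236. Among the other 13 cells Sema3c kept a Spearman value of 0.374 with Dpp4 and 0.346 with Cd55, whereas Dpp4 had −0.319 with Pi16 and −0.0604 with Anxa3. The likeness of the 5 markers was thus seen mainly with cells 1 and 7 included. These cells are the highest by the same genes and were left out after the data were seen. Lower values without them follow in part from that choice, and how far was not tested.

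**Figure D2:**
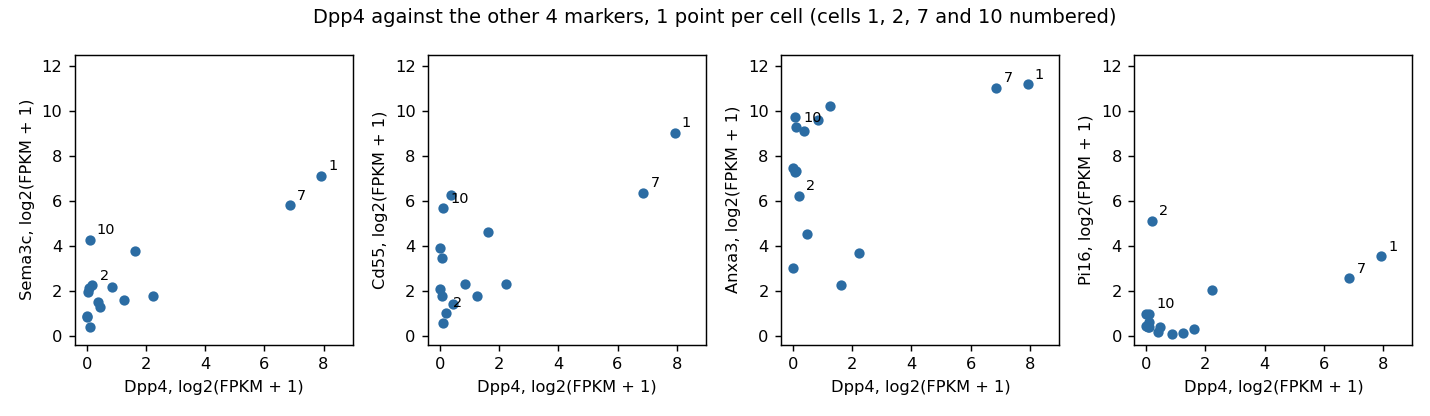
Dpp4 on the x axis against Sema3c, Cd55, Anxa3 and Pi16 on the y axes, all as log2(FPKM + 1), with 1 point per cell and cells 1, 2, 7 and 10 numbered. Cells 1 (7.93) and 7 (6.87) lie alone at high Dpp4, and the other 13 cells spread along the y axes at Dpp4 values of at most 2.24.

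Most other genes described for interstitial progenitors had positive correlations with the markers, and cell 1 was often their highest cell. The list of 46 symbols, 2 of which (Nov and Ccn3) name 1 gene, had 39 with a row, and 37 of these were detected in at least 3 cells. Their Spearman correlation with the mean rank of the 5 markers had a median of 0.462, against 0.0143 over the 7420 rows tested. It was 0.5 or more for 16 of the 37 genes (43.2%), against 4.7% of all rows, and above 0 for 36. Cell 1 was the highest cell for 17 of the 37, against 7.13% of all rows. Cell 7 was the highest for 2, near the 4.68% of all rows. The list was compiled from knowledge of these progenitors with earlier results of these data in view, so the count is a description. Without cell 13, 10 of the 37 genes were at 0.5 or more (4.16% of all rows), with a median of 0.403. Without cell 1 the count was 11 (5.31% of all rows) and the median 0.385. Without cells 1 and 7 these were 10 (5.92% of all rows) and 0.336. A list of general stromal progenitor genes, which also holds Cd34 of the interstitial list, had a median of 0.341 with all cells. Its median was 0.442 without cell 1 and 0.380 without cells 1 and 7, both above those of the interstitial list.

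Ackr3, Adgrd1 and Smpd3 led the list. Ackr3, a scavenging receptor for CXCL12, was highest in cells 10 (8.85) and 1 (8.81), followed by cells 6 (6.87), 4 (6.67) and 7 (6.14), with a median of 5.49 and a lowest value of 0.73 in cell 13 (correlation 0.824). Smpd3, a neutral sphingomyelinase, was narrow: it stood at 4.90 (cell 7), 4.27 (cell 1) and 3.97 (cell 10), and no higher than 1.29 in the other 12 cells (0.821). Adgrd1, an adhesion G protein-coupled receptor, stood at 7.18 in cell 1, 6.27 in cell 10 and 6.18 in cell 7, with a median of 2.62 (0.821). Each of these 3 genes was therefore high in cell 10 as well, a cell with Dpp4 at 0.09.

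Cd248, the stromal glycoprotein endosialin, had its highest values in cells 1 (8.66) and 7 (8.53) and was detected in 14 cells, and Ly6c1 stood at 12.36 in both cells and was detected in all 15. Ly6c2, a close copy of Ly6c1, followed the same course (10.11 and 9.84), and reads of the 2 genes may not have been told apart. Emilin2, an elastic fibre glycoprotein, stood at 6.61 and 5.80, and together with Cd248, Ly6c1, Fbn1 and Smpd3 it had cells 1 and 7 as its 2 highest, so that 5 of the 39 genes did, against 1.06% of all rows detected in at least 2 cells. Pcolce2, which enhances procollagen processing, was highest in cell 1 (8.21), then in cells 2 (7.09) and 7 (6.81). Dpt and Igfbp6 were high in nearly every cell and highest in cell 1 (10.60 and 11.81).

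A part of the list was present in cell 1 without cell 7, or in cell 10. Efhd1 stood at 7.80 in cell 1, 6.61 in cell 12 and 0.24 in cell 7. Arl4d, a small GTPase, stood at 7.29 in cell 10, 6.94 in cell 1 and at most 1.52 elsewhere. Pcsk6, a proprotein convertase, passed 1 FPKM in cells 10 (5.96), 7 (4.67), 1 (4.56) and 3 (4.06) and was at most 0.47 in all others. Wnt2, a ligand gene of the progenitors, was below 1 FPKM in each cell, with a highest value of 0.73. Il33 was detected in cells 8 (5.60), 2 (5.04) and 12 (3.09) and was at most 0.10 in the other cells. The mean over the 39 genes was 6.85 in cell 1, 5.51 in cell 10, 5.38 in cell 7, between 2.46 and 4.61 in 11 cells, and 1.30 in cell 13. Cell 13 was the lowest cell for 19 of the 37 genes, against 10.8% of all rows. That cell had a mural list mean of 5.83, against 8.72 in cell 5 and at most 2.37 in the others, and the part of its mural genes in the correlations was not tested beyond the values without it given above.

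**Figure D3:**
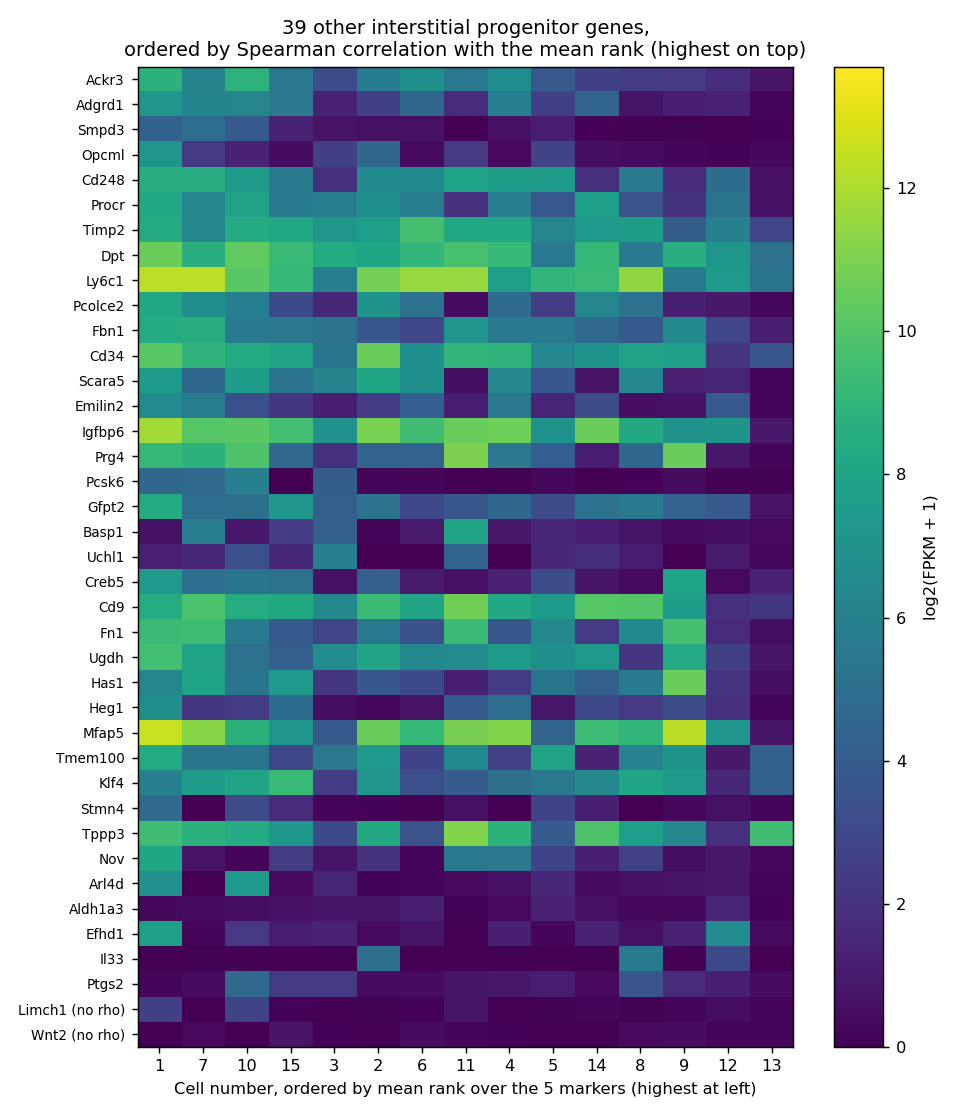
Values, as log2(FPKM + 1), of the 39 other interstitial progenitor genes in the 15 cells, with cells ordered by the mean rank of the 5 markers and genes by their Spearman correlation with it. Most of the upper genes, from Ackr3 (0.824) down, have higher values in cells 1, 7 and 10 at the left, and cell 13 at the right is dark for most genes.

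Among all rows, the genes most like the mean rank were led by Ifi211, which the file lists as Mnda, and Ifi205 (0.842 and 0.839). These are neighbouring, similar genes of the interferon-inducible Ifi200 family, so their separate values are uncertain. Both were highest in cell 10 (9.91 and 10.52) and detected in all cells. Clec3b, which encodes the plasminogen-binding protein tetranectin, followed at 0.835 with 8.72 in cell 7, 7.85 in cell 10 and 7.78 in cell 1. After Ackr3, Smpd3 and Adgrd1 came Plpp3 (a lipid phosphate phosphatase), Vldlr (the very low density lipoprotein receptor), Plgrkt (a plasminogen receptor), Gpn3, Dclk1, Lgals3 (galectin 3), Slc38a10, Prss12 and Ccz1, between 0.796 and 0.756. The 99th percentile of all rows was 0.652. The order is loose: with Pearson's correlation 1 of these 15 genes stayed among the first 15, and without cells 1 and 7 there were 7.

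Each marker alone had different nearest genes. For Dpp4 they were Tm9sf4 (0.857), Sumf1, Cln6, Nr1d2 and Uros, and their Pearson values ran from 0.0472 (Cln6) to 0.680 (Uros). Dpp4 was detected in 5 of 15 cells, so its Spearman values rest largely on the order of low values. Cln6 was below 1 FPKM in cells 1 (0.51) and 7 (0.39), and so were Nr1d2 (0.33) and Uros (0.86) in cell 7. Tm9sf4 and Sumf1 were detected in both of these cells. Nearest to Sema3c were Egfr (0.875), the epidermal growth factor receptor, then Ly6c2, Fer, Ly6c1 and Ift20. Egfr stood at 7.60 (cell 10), 7.45 (cell 7), 7.27 (cell 2), 6.86 (cell 8) and 6.77 (cell 1). Cd55 had Lrrc59 (0.807), Lamc1, Galnt16, Emilin2 and Thbs2, among them the laminin chain Lamc1 at 8.62 in cell 1 and 7.92 in cell 7. Smpd3 (0.843), Fbxl18, Gmip, Stim2 and Rock2 were nearest to Anxa3, and Eif1ax (0.793), Sucla2, Uchl3, Stx4a and Polr2e to Pi16. Emilin2, Ly6c1 and Smpd3 were the genes of the progenitor list among these 25.

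Genes of committed preadipocytes had lower correlations with the markers. Of 18 listed genes 17 had a row, and their median correlation with the mean rank was −0.153, with none at 0.5 or more or at −0.5 or less (2.87% of all rows were at −0.5 or less). Correlations were above 0 for 6 of the 17 genes, highest for Ggt5 (0.326) and Col15a1 (0.287). Pparg, a nuclear receptor required for fat cell formation, had the lowest (−0.489): it stood at 0.00 in cells 1, 2, 9 and 10 and 0.11 in cell 7, and at 4.19 or more in cells 6, 8, 12, 13 and 14. Icam1, the surface marker of this stage, was 0.21 in cell 1, 0.50 in cell 7 and 0.46 in cell 10. It was highest in cell 15 (7.31), where Dpp4 was 0.08. By the mean rank of the markers, however, cell 15 (8.6) stood behind only cells 1, 7 and 10. Cd36, a fatty acid translocase, stood at 1.55 and 1.40 in cells 1 and 7, and at 6.63 or more in cells 4, 6, 12, 13 and 15. Without cells 1 and 7 the median was −0.0468.

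**Figure D4:**
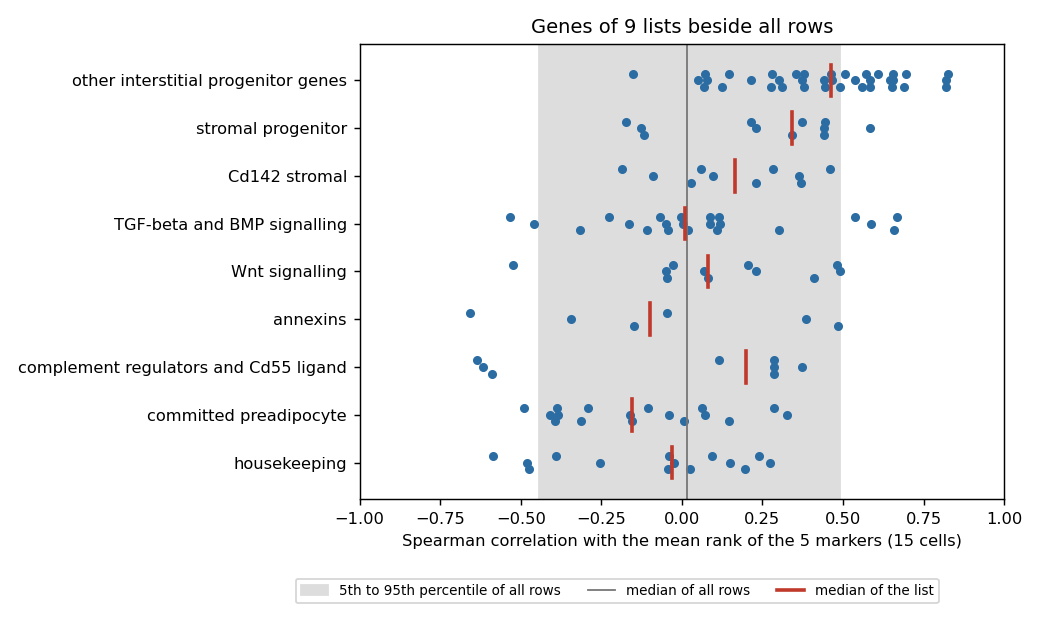
Spearman correlation of single genes with the mean rank of the 5 markers over 15 cells, 1 point per gene, for 9 gene lists, with the median of each list in red and the 5th to 95th percentile of all 7420 rows in grey. The other interstitial progenitor genes have a median of 0.462, and the committed preadipocyte genes one of −0.153.

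Relatives and partners of the markers had list medians on both sides of 0. Of the other annexins 6 had a row, all detected in 14 or 15 cells, with correlations from −0.656 (Anxa6) to 0.484 (Anxa4) and a median of −0.0977. Anxa4 had its highest values in cells 1 (8.28) and 7 (7.96), and Anxa7 in cells 7 (6.71) and 1, whereas Anxa1 was highest in cell 13 (11.25). Of the peptidases related to DPP4, Fap, the fibroblast activation protein, was detected in 13 cells and stood at 7.31 in cell 1 and 6.79 in cell 7, but was highest in cell 12 (7.88). The chemokine Cxcl12, a DPP4 substrate, had its second lowest value in cell 1 (2.58) and 6.91 in cell 7, with a correlation of −0.0645, and the eotaxin Ccl11 stood at 7.95 and 7.34. The list of complement regulators and the CD55 ligand had 8 genes with a row (median 0.20). Of these 3 were at −0.5 or less, against 2.87% of all rows: a pair of close copies and the gene of the ligand. The membrane inhibitor Cd59a (−0.588) and its close copy Cd59b (−0.635) were at most 0.50 in cells 1, 7 and 10. Adgre5, the gene of the CD55 ligand CD97, had −0.616, with 1.08 in cell 1, 0.13 in cell 7 and 6.08 in cell 9. Nrp1, a co-receptor of class 3 semaphorins, was detected in 13 cells (3.49 in cell 1, 0.51 in cell 7, 7.62 in cell 6). Sema3a and Sema3b were highest in cell 10 (6.05 and 6.45). Pi15, a relative of Pi16, was detected in 6 cells, and Glipr2, another CAP protein, in 14, highest in cell 1 (7.26).

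Transforming growth factor beta is known as a signal that holds progenitors undifferentiated, and its list had correlations in both directions. Of 22 tested genes of the TGF-beta and BMP list 4 were at 0.5 or more, against 4.7% of all rows: Tgfbr3 (0.667), Bmp1 (0.660), Tgfbr2 (0.588) and Ltbp1 (0.538). At −0.5 or less was Id1 (−0.534), a BMP target gene, against 2.87% of all rows. The other receptors tested were Tgfbr1 (0.118, detected in 3 cells), Bmpr1a (0.0860) and Bmpr2 (−0.315). Tgfbr3 and Tgfbr2 were highest in cell 10 (8.17 and 7.06), with 6.23 and 6.50 in cell 1 and 4.71 and 4.53 in cell 7. The list's median was 0.0108 and changed sign with the settings (−0.0407 without cell 13). Bmp1, a protease of procollagens, was highest in cell 1 (6.95). Bmp2 was detected in cell 1 only (5.06). Of 16 Wnt genes with a row, 11 were tested. None was at 0.5 or more, a count near the 4.7% of all rows, and Tcf7l2, a transcription factor of the pathway, was at −0.523. Sfrp2, a secreted Wnt modulator, stood at 10.19 (cell 2), 5.54 (cell 11), 5.38 (cell 1) and 4.31 (cell 7), and no higher than 2.19 elsewhere.

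General stromal genes and markers of other cells were read beside these results. Of the stromal progenitor list 11 genes had a row, with a median correlation of 0.341. Cd34, which is also on the interstitial list, had the highest (0.583), at 10.15 in cell 1, 8.92 in cell 7 and 10.54 in cell 2. The reporter's driver gene, Prrx1, stood at 4.88 in cell 1, 5.77 in cell 7 and 6.37 in cell 10, within the 0.22 to 7.56 of all cells. Mural genes were low in cells 1 and 7, with list means of 0.713 and 0.814. Csf1r, the 1 gene of 8 immune markers with a row, was detected in cells 2 (6.39), 1 (3.81), 7 (3.35) and 13 (1.78), 3 of which are the highest Pi16 cells. Of 8 endothelial markers Tek and Esam had rows, and Tek was detected in cell 1 only (5.04), where Esam was 0.29. The part of such cells' RNA in the values of cells 1, 2 and 7 was not tested. Of the Schwann list, Mbp (0.563) and S100b had rows. The 14 housekeeping genes had a median correlation of −0.0323. Of 7 mesothelial markers looked for, none had a row that could be used.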

How the data were processed

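The table holds 8446 rows (8441 gene identifiers) and 15 cell columns, tied to cells through the number in each title. Another 18 columns were empty and unnamed. Per the submitters' processing notes, TopHat2 and Cufflinks were used with GRCm38, with versions and settings not given in the sources used here. Per the labels' protocols, cDNA came from the SMART-Seq v4 3′ DE kit and libraries from Nextera XT. The deposited values are taken as log2(FPKM + 1): the base was inferred, since they end at 13.69 and then sum to a mean of 592948 FPKM per cell. Sorted columns differ by at most 0.0354 above 0.2, so the deposited log2 values had been quantile-normalized, a step that no label records. Every cell therefore has 4369 rows at 1 FPKM or more. A value is in effect the gene's rank in its cell, and the correlation of totals or depth with a marker could not be examined.

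Computed here were detection at 1 FPKM with exact binomial 95% intervals, Spearman and Pearson correlations over cells, the mean rank of the 5 markers, and the correlation of each of 7420 other rows detected in at least 3 cells with it. For the highest pair of cells, 8017 rows detected in at least 2 cells were used. No test was run, because the cells form 1 sample. Named genes were the 5 markers, the 5 rows nearest to each, the 15 highest and 10 lowest rows by the mean rank, the 15 widest steps shared with Dpp4, and in each list the genes detected in most cells or highest in the same cell as Dpp4. From the longer lists a selection is printed, and list genes named beyond this were chosen after their values were seen. Predicted and ribosomal genes were not named. The bound of 0.5 for counting correlations was chosen after seeing the data. Cells were picked singly and no doublet caller was run. Of 263 listed symbols in 21 lists 175 had a row. The markers and lists were chosen with earlier results of these data known. Identifiers of all 197 rows checked matched the reference of gene names, and 195 had the same symbol. The other two were Mnda (Ifi211) and Nov (Ccn3). Gene coordinates follow GENCODE M21 (GRCm38), and promoter sequences come from RefSeq, matched by symbol for 4 of 5 markers. The code of the correlation step was run on shuffled values with planted rows. Those rows were put in the order of the mean rank, so the run checks the calculation and not the results. Python 3.11.15, numpy 2.4.6, pandas 2.3.3 and scipy 1.17.1 were used.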

Additional observations from a re-analysis of the deposited data

How the results depend on the processing

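Detection of Dpp4 and Pi16 moved within the binomial interval under other thresholds. At 5 FPKM Cd55 was detected in 7 and Sema3c in 4 cells, and when 1% of the gene's highest value was also required Cd55 was detected in 7 and Anxa3 in 11. Rescaling each cell to a common total changed no count of cells. The deposited values already shared nearly the same distribution, so this setting could hardly change a count and is no check. Cells 1, 7 and 10 kept places 1, 2 and 3 under all settings tried, while cell 13 moved from place 15 to 14 with scaled values and without Dpp4, Cd55 or Sema3c. The mean correlation of the markers was 0.489 as Pearson's, 0.246 without cells 1, 11 and 14, and 0.0236 without cells 1 and 7, a setting chosen after seeing the data, and leaving out 1 cell gave 0.205 to 0.407. With Pearson's correlation the list medians were 0.533 for the progenitor genes, −0.239 for the preadipocyte genes, −0.0189 for the Cd142 genes (0.163 as Spearman's) and −0.119 for the TGF-beta and BMP genes. The last was −0.0407 without cell 13. Without cells 1 and 7 these 4 medians were 0.336, −0.0468, 0.261 and 0.124. For the stromal progenitor genes the median was 0.232 as Pearson's, 0.442 without cell 1 and 0.380 without cells 1 and 7. The share of rows with cells 1 and 7 on top was 0.262% with a step of at least 1, where fewer rows can qualify. The cause of the other shifts was not tested. No paired analysis was possible because the cells form 1 group. Depth is unknown, so low values limit Dpp4 and Pi16 most.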

Other observations

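At the other end of the order, Hnrnpa2b1, which encodes an RNA-binding protein of the spliceosome, had the lowest correlation with the mean rank of the 5 markers (−0.821) and was detected in all 15 cells, from 6.10 to 10.58, with its highest value in cell 13. It was followed by Capza1 (an actin capping protein), Adrm1 (a ubiquitin receptor of the proteasome), Rnf2 (a Polycomb ubiquitin ligase), Pxk, Zbtb21, Ginm1, Gtpbp2, Cetn3 and Ddx46, between −0.799 and −0.742. Of these 10 genes, Hnrnpa2b1, Adrm1, Ginm1, Gtpbp2 and Cetn3 were highest in cell 13. These are the extremes of 7420 rows over 15 cells, given as values only.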
